A study of Mus musculus with 2 samples.

Results

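Genes of leukocyte receptor and interferon regulator families were followed through a comparison of DNA methylation between Ngn3 null and Ngn3 heterozygous cells of the mouse pancreas. The members were chosen by symbol, as all genes that fit 1 of 12 patterns. The patterns take Toll-like receptors, interferon regulatory factors, Fc gamma receptors, the Trem family, C-type lectins, colony-stimulating factor (CSF) receptors, interleukin receptors, neutrophil cytosolic factors, CC and CXC chemokine receptors, the TNF receptor superfamily and genes with a CD number. Of 49997 genes in the RefSeq annotation of GRCm38.p6, 234 were members, and 231 of these were protein-coding. The other 3 were pseudogenes. No methylation value entered that choice directly, but the families were selected on how they stood in the deposited lists, so their counts below are descriptions.

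The study compared 2 bisulfite sequencing libraries of E14.5 pancreas cells sorted for eGFP driven from the Ngn3 locus. Ngn3 (current symbol Neurog3) is the transcription factor that starts endocrine differentiation. The null library came from Ngn3 eGFP/eGFP embryos, in which the reporter sits on both alleles and the cells are labelled endocrine progenitors. The heterozygous library came from Ngn3 eGFP/+ embryos, in which the reporter sits on 1 allele and the cells are labelled islet progenitors. Both were of mixed background, over 95% ICR with small shares of C57Bl/6 and 129svev. Both genotypes thus carry the reporter, and the sort collects cells in which the Ngn3 locus is active, whether or not they hold the Ngn3 protein. With 1 library for each genotype the spread between replicates is unknown, and no p-values are printed. How many embryos went into a library is not stated in the labels.

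The deposited table gives the names of the genes nearest to regions that were less methylated in null cells (the lower list, 429 names) or more methylated in null cells (the higher list, 3230 names). Each name stands once within a list, and some genes are in both lists. The table gives no methylation level, no position of a region, no number of regions per gene and no coverage. For a member the readout is therefore its presence in a list, and a listed gene is near a difference but need not carry it in its own body or promoter. About 400000000 reads per library are stated, and the depth behind any 1 region is unknown. The lists do not measure expression, so the labelled cell type could not be checked against its markers. In sorted tissue, a methylation change within cells and a change in the mix of cells cannot be told apart.

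The members serve mostly in immune cells. Toll-like receptors, Fc receptors, Trem proteins and C-type lectins sense microbes, antibodies or dying cells at the surface or in endosomes of myeloid cells. Chemokine, interleukin, CSF and TNF receptors carry signals between cells, and interferon regulatory factors (IRFs) are the transcription factors that act on interferon and myeloid or lymphoid genes. Myeloid and lymphoid genes are often methylated and silent outside blood cells, and some members, such as CD47 and CXCR4, are made by many other cells. The pancreas of the embryo holds macrophages among its epithelial cells.

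Of the 234 members, 31 were named, 9 of them in the lower and 22 in the higher list, with 0 in both. Those of the lower list included Tlr8, Irf4, Irf8, Fcgr1, Treml2, Treml4, Clec12b and Csf2rb2. The higher list named Tlr1, Tlr5, Irf2, Irf2bp2, Clec9a, Csf3r, Ncf1, Cxcr4, the interleukin receptor genes Il2rg, Il6ra, Il12rb2 and Il22ra1, the TNF receptor genes Tnfrsf11a, Tnfrsf14, Tnfrsf18 and Tnfrsf19, and the CD genes Cd28, Cd36, Cd47, Cd180, Cd200 and Cd274. The other 203 members were named in neither list. Of all annotated genes, 0.812% were in the lower list, and 0.552% were in the lower list only. Genes in both lists were thus rare among all genes, and the 0 in both is no result about the members.

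**Figure D1:**
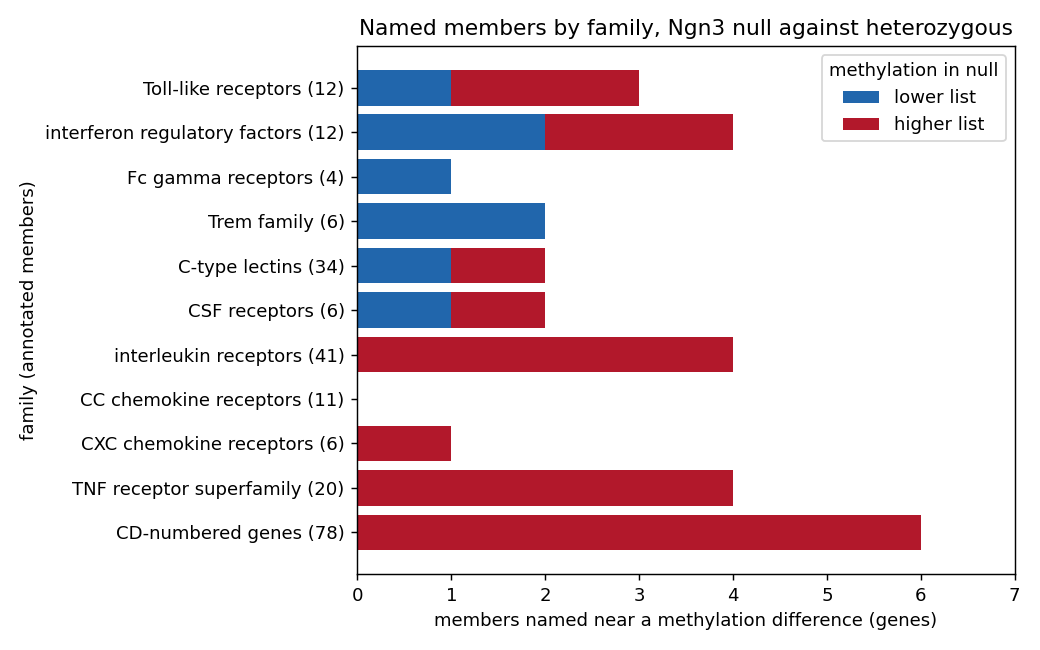
Bars give the number of named members (x axis, genes) in each of 11 families (y axis, with the number of annotated members in parentheses). Blue marks the list of lower and red the list of higher methylation in null cells; the Fc gamma receptor and Trem families have blue bars only, and the CD-numbered, interleukin receptor, TNF receptor and CXC receptor families have red bars only.

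The share of members in the lower list was 3.85%, against 0.812% of all annotated genes. Among protein-coding genes it was 3.9% of the 231 members, against 1.51% of all 21900, which is 2.58 times that share. In the higher list the direction depended on the class of gene counted, with 9.4% of members against 6.29% of all annotated genes, and 9.52% of protein-coding members against 12.1% of all protein-coding genes. The protein-coding share is the closer match because all but 3 members code for proteins. Of the named members, 29% were thus in the lower list, against 11.1% of the entries of all protein-coding genes in both lists. These are descriptions of 2 libraries, with no test behind them.

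Gene length bears on such shares, since long genes were named more often. Above the median length of 17.1 kb, 5.94% of 101 members were in the lower list, against 2.35% of all protein-coding genes of that length. At or below it, 2.31% of 130 members were in the lower list, against 0.676% of all. In the higher list the long members were at 12.9%, against 18.3% of all long genes, and the short members at 6.92%, against 5.89% of all short genes. The members' share of the lower list was thus the larger in both length classes, while the higher list gave no common direction. The counts behind the lower list are small, 6 long and 3 short members. The families were selected on how they stood in these lists. The split therefore describes the same genes and does not test their share.

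**Figure D2:**
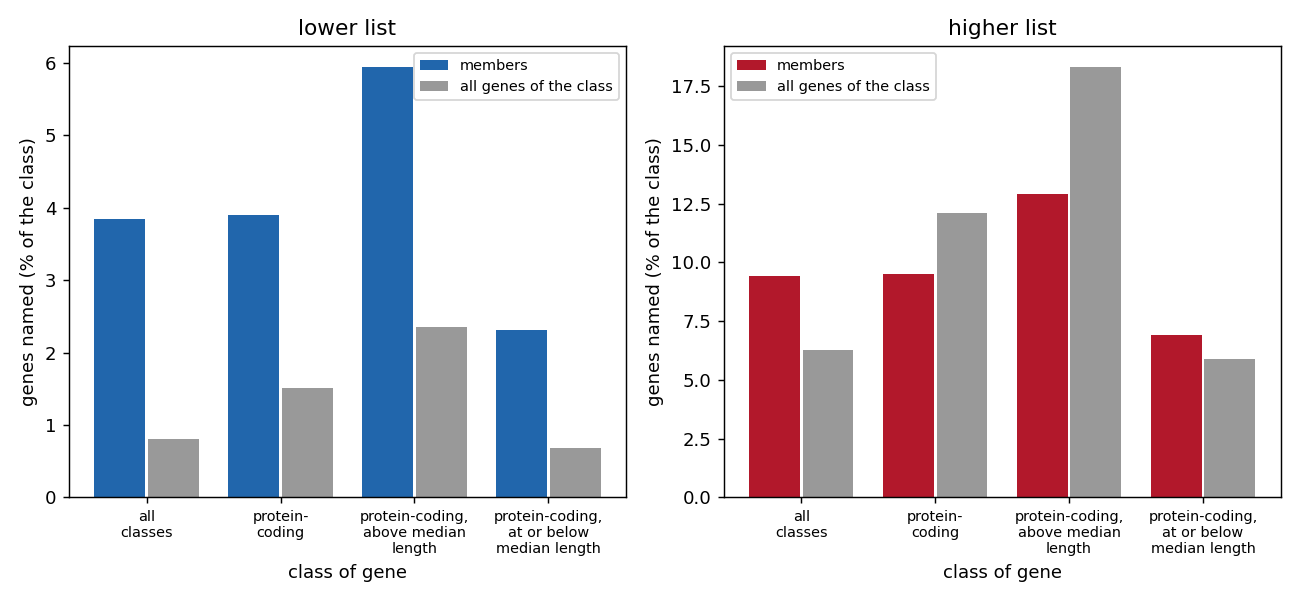
Bars give the percentage of genes named (y axis) among members (coloured, left of each pair) and among all genes of the same class (grey) for 4 classes of gene, in the lower list (left panel) and the higher list (right panel). The coloured bar stands above the grey one in all 4 classes of the lower list; in the higher list it stands below for protein-coding genes (9.52% against 12.1%) and for long ones, and above for the other classes.

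The interferon regulatory factors were named in both directions. The pattern takes the 9 IRF genes proper and 3 genes of IRF2 binding proteins. Each list held 16.7% of these genes, against 1.51% of all protein-coding genes in the lower and 12.1% in the higher list. Irf8 (chromosome 8, 120736358 to 120756694), a factor that macrophage and dendritic cell development needs, was in the lower list. So was Irf4 (chromosome 13, 30749233 to 30766981), its close relative, which acts in B cells, T cells and some dendritic cells. Irf2 (chromosome 8, 46739745 to 46847458), which is best known as a repressor of interferon genes, was in the higher list, as was Irf2bp2 (chromosome 8, 126588296 to 126593986), the gene of a corepressor that binds IRF2. Irf1, Irf3 and Irf5 were among the 8 in neither list.

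Promoter sequences of 6 members show how differently these genes are supplied with CpG, the dinucleotide that carries methylation in most mammalian cells. They were chosen to set the 3 named IRF genes proper against 3 immune receptor genes of the lower list. Each is the 250 bases upstream of the outermost start that the RefSeq promoter table gives, 5′ to 3′ on the strand of the gene, from GRCm38.p6, with every CpG in capitals. For Treml4 that start lies inside the annotated gene, and 95 bases of its window are within the gene's annotated span. The positions are chr8:120736108-120736357, plus strand for Irf8, chr13:30748983-30749232, plus strand for Irf4, chr8:46739495-46739744, plus strand for Irf2, chr3:96293970-96294219, minus strand for Fcgr1, chrX:167264330-167264579, minus strand for Tlr8 and chr17:48264045-48264294, plus strand for Treml4. Whether a methylation difference lay in any of these windows is not known from the table.
Irf8: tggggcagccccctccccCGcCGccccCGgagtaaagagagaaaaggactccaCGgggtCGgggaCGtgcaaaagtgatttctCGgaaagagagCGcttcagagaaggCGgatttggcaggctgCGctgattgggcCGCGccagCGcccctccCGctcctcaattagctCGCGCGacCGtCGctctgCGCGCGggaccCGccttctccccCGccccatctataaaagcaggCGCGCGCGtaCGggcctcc
Irf4: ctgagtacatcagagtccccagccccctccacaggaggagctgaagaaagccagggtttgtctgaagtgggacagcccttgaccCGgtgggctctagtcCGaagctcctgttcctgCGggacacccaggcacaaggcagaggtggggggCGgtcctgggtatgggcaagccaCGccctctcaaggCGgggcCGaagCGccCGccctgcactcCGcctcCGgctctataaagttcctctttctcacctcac
Irf2: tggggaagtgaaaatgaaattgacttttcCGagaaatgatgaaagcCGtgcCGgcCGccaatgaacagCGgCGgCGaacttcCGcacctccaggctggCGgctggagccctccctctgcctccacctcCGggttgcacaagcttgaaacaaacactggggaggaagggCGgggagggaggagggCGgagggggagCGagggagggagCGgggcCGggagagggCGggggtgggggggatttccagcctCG
Fcgr1: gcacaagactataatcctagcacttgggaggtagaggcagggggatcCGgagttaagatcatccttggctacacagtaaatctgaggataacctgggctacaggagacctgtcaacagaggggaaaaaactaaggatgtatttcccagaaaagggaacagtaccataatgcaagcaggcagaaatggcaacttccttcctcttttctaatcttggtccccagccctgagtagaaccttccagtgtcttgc
Tlr8: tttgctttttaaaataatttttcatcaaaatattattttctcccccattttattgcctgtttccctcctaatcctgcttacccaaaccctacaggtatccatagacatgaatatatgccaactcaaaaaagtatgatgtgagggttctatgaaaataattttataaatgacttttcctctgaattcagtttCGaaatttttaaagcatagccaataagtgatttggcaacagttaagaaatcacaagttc
Treml4: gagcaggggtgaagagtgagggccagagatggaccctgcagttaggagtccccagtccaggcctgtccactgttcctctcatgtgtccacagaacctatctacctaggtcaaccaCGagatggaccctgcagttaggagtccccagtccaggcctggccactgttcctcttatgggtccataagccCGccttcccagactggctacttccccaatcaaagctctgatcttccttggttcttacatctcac

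Irf8 had 29 CpG in its window, Irf2 had 17 and Irf4 had 11. Treml4 had 2, and Fcgr1 and Tlr8 had 1 each. The IRF promoters thus lay above, and the receptor promoters below, the median of 10 over 17492 protein-coding genes with a promoter sequence. Other named receptor genes did not share the low number, with 19 CpG at Cxcr4, 18 at Il6ra and 31 at Tnfrsf11a. By list, of the 7 members of the lower list with a sequence, 5 had at most 3 CpG (71.4%), against 21.1% of all protein-coding genes in that list. In the higher list it was 8 of 21 members (38.1%), against 15.1% of all. Members in neither list stood between these, at 44.4% of 151, against 31.7% of all such genes, so CpG-poor promoters were common in these families whether or not a gene was named. Irf2bp2 had 32 and Cd47 30 CpG, both in the higher list.

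Among 12 Toll-like receptor genes 3 were named. The lower list held 8.33% of the family (against 1.51% of all protein-coding genes) and the higher list 16.7% (against 12.1%). Tlr8 (chromosome X, 167241123 to 167264329), an endosomal receptor for RNA, was in the lower list, while its neighbour Tlr7, 39 kb away, was in neither. Tlr1 (chromosome 5, 64924680 to 64933600), whose protein pairs with TLR2 to sense bacterial lipopeptides, was in the higher list. Its neighbour Tlr6, 19.5 kb away, was in neither list. Tlr5 (chromosome 1, 182954752 to 182976044), the receptor for flagellin, was also in the higher list, and Tlr2, Tlr3 and Tlr4 were in neither. Cd180 (chromosome 13, 102693547 to 102706631), the gene of a Toll-like protein of B cells, was in the higher list. It lies in a gene-poor stretch, and the 489 kb that is closer to Cd180 than to any other protein-coding gene, its own body included, was the widest such span among the named members. Both of its protein-coding neighbours, Pik3r1 and Mast4, were in the higher list too.

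The Fc gamma receptor and Trem families, with 10 genes in all, had 3 named members, none of them in the higher list. The lower list, which held all 3, named 1.51% of all protein-coding genes. Families so small would hold about 1 gene of the higher list at the 12.1% of all protein-coding genes. Fcgr1 (chromosome 3, 96282909 to 96293969), the high-affinity receptor for IgG, was in the lower list, and Fcgr2b, Fcgr3 and Fcgr4 on chromosome 1 were in neither. Of the 6 Trem genes, which lie together on chromosome 17, Treml4 (48264200 to 48275607) and Treml2 (48299390 to 48312534) were in the lower list. These are adjacent, 23.8 kb apart. Of 62 pairs of members that follow each other by start position, only this pair had both genes named. The overlapping Clec12b and Clec9a, both named, were not among these pairs, because Clec1b starts between them. Trem1, Trem2, Trem3 and Treml1 were in neither list. Regions in the same stretch could name both Treml4 and Treml2, so these are not independent.

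C-type lectin genes were the rarest of the larger families that were named at all, with 2 of 34. Each list held 3.03% of the protein-coding ones, against 1.51% of all protein-coding genes in the lower and 12.1% in the higher list. Clec12b (chromosome 6, 129375513 to 129427634), an inhibitory receptor gene, was in the lower list. Clec9a (129408862 to 129424764), a receptor of dendritic cells for dead-cell material, was in the higher list. All 15.9 kb of Clec9a lie inside the annotated span of Clec12b, and the genes run on opposite strands. The start that the promoter table gives for Clec12b lies inside its annotated span, 23.4 kb from that of Clec9a. Regions of opposite sign that named these 2 genes could therefore lie close together, and the table does not tell how far apart they were. Clec1a, Clec1b, Clec2d and Clec2e were among the 32 members in neither list.

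**Figure D3:**
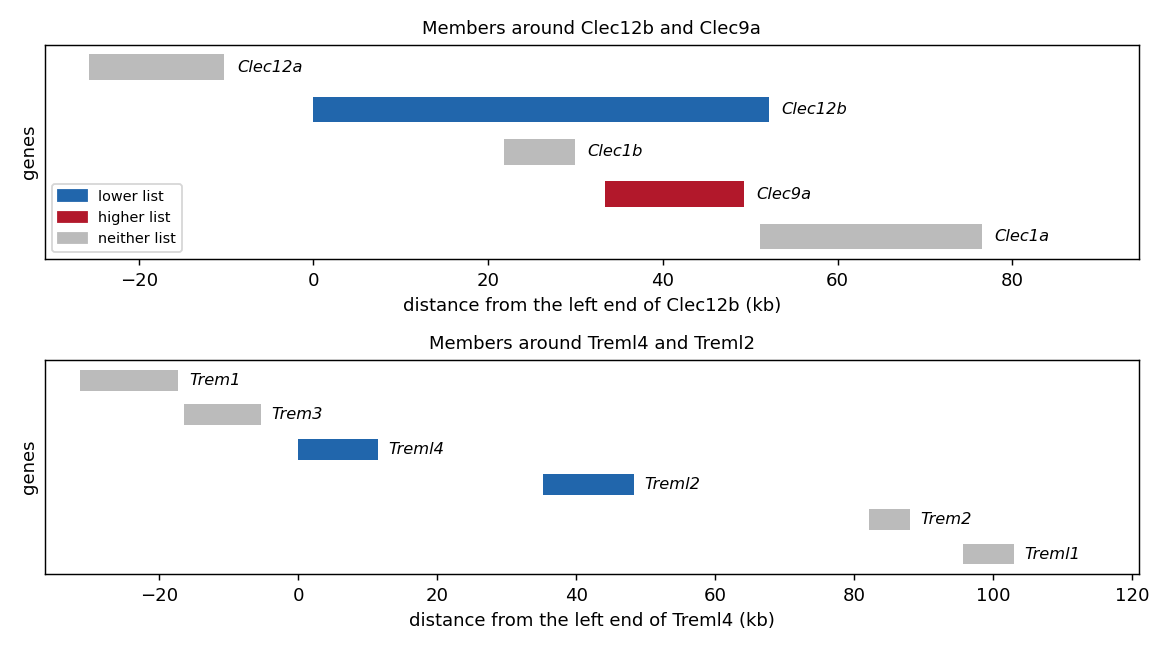
Bars show the annotated extent of members around Clec12b and Clec9a (upper panel) and around Treml4 and Treml2 (lower panel), against distance in kb from the left end of Clec12b or Treml4. Blue marks the lower list, red the higher list and grey neither list; Clec9a lies inside Clec12b, and Treml4 and Treml2 are next to each other.

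The CSF receptor family had 1 gene in each list, which is 20% of its 5 protein-coding genes. Of all protein-coding genes, 1.51% were in the lower and 12.1% in the higher list. Csf2rb2 (chromosome 15, 78282507 to 78305721), a receptor chain for interleukin 3 in mice, was in the lower list, while its near copy Csf2rb, 20.1 kb away, was in neither. Reads of such copies can be placed on the wrong one. Csf3r (chromosome 4, 126023441 to 126044975), the receptor for the neutrophil growth factor G-CSF, was in the higher list, and Csf1r and Csf2ra were in neither. Ncf1 (chromosome 5, 134220053 to 134229628), which encodes the p47phox subunit of the oxidase that makes superoxide in neutrophils and macrophages, was in the higher list, with both protein-coding neighbours, Gtf2ird2 and Gtf2i, named there as well. None of 10 genes of NADPH oxidases outside the rule, among them Cybb, Cyba and Rac2, was in a list. At the shares of all protein-coding genes so few genes would give few names, so this is no result about them.

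Genes of the interleukin receptor, chemokine receptor and TNF receptor patterns were named in the higher list, and the lower list held 0 of them, where 1.51% of all protein-coding genes were named. Families of this size would hold about 1 gene or fewer at that rate, so the 0 is no result about them. Of 41 genes of the interleukin receptor pattern, 4 were in the higher list (9.76%, against 12.1% of all protein-coding genes). Il2rg (chromosome X, 101264385 to 101268255) encodes the common gamma chain of several interleukin receptors of lymphocytes, and Il12rb2 (chromosome 6, 67285986 to 67376293) a chain of the interleukin 12 receptor of T and NK cells. Il6ra (chromosome 3, 89869324 to 89913196) encodes the interleukin 6 receptor. Il22ra1 (chromosome 4, 135728159 to 135755383) is a receptor gene of epithelial cells, the pancreas included. Il12rb2 overlaps its neighbour Serbp1 over a small part of its length, and Serbp1 was also in the higher list. Whether the same region named both is not known. Il1r1, Il1r2, Il1rap and Il1rapl1 were among the 37 in neither list.

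Cxcr4 (chromosome 1, 128588199 to 128592299), the receptor for CXCL12, was the only chemokine receptor gene named, of 11 CC and 6 CXC receptors. Its ligand gene Cxcl12 (chromosome 6, 117168535 to 117181368) was in the higher list as well. Cxcr4 is only 4.1 kb long but is the nearest protein-coding gene over 430 kb. Ccr1, Ccr2, Ccr3 and Ccr4 were in neither list, as were Cxcr1, Cxcr2, Cxcr3 and Cxcr5. The higher list held 16.7% of CXC and 0% of CC receptor genes, against 12.1% of all protein-coding genes.

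Of the 20 TNF receptor genes, 4 were in the higher list (20%, against 12.1% of all protein-coding genes). Tnfrsf11a (chromosome 1, 105780673 to 105849444) encodes RANK, the receptor that osteoclasts and mammary epithelium use. Tnfrsf19 (chromosome 14, 60963834 to 61046855) encodes TROY, a receptor of embryonic epithelia and neural cells. Tnfrsf14 (chromosome 4, 154918487 to 154928620) encodes HVEM and Tnfrsf18 (chromosome 4, 156026322 to 156028894) encodes GITR, both of which modulate T cells. Tnfrsf18 was the shortest named member, at 2.57 kb, and its neighbour Tnfrsf4, 9.71 kb away, was in neither list, nor were Tnfrsf1a, Tnfrsf1b and Tnfrsf8. Of 32 ligands and adaptors of this family, the higher list held Tnfsf4, Tnfsf14 and Tnfsf15 (9.38%, against 12.1%) and the lower list 0 (against 1.51%). Tnfsf14 encodes LIGHT, a ligand of HVEM, so a ligand and its receptor gene were both named.

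CD numbers gather unlike genes. Of 78, the higher list held 6 (7.69%, against 12.1% of all protein-coding genes) and the lower list 0 (against 1.51%). Cd28 (chromosome 1, 60746388 to 60773359) encodes the co-stimulatory receptor of T cells. Cd274 (chromosome 19, 29362107 to 29388095) encodes PD-L1, Cd200 (chromosome 16, 45382111 to 45409060) a ligand that restrains myeloid cells, and Cd47 (chromosome 16, 49851328 to 49912503) the signal that restrains phagocytosis. These 3 are made by many cell types besides leukocytes. Cd36 (chromosome 5, 17781690 to 17888959) encodes a fatty acid transporter and scavenger receptor. The T cell genes Cd2, Cd3d, Cd3e and Cd3g were among the 72 in neither list. Leaving the CD pattern out raised the members' share of the lower list to 5.77%, against 0.812% of all annotated genes. That rise was fixed in advance, since none of the 9 came from the CD pattern. The members' share of the higher list became 10.3%, against 6.29%.

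The named members were short for listed genes. Lower-list members had a median length of 20.3 kb and ranged over 11.1 to 52.1 kb, against a median of 51 kb for all protein-coding genes of that list. Higher-list members had a median of 23.8 kb and ranged over 2.57 to 108 kb, against 55.2 kb for all in that list. Members in neither list had a median of 14.8 kb, against 15.1 kb for all. The span nearest to a gene, its body plus the gaps up to the midpoints with its protein-coding neighbours, had a median of 49.1 kb for lower-list members, against 131 kb for that list as a whole. In the higher list it was 110 kb for members, against 125 kb for all. Neighbours were taken as the next protein-coding genes by start position on either side. Such a neighbour was itself named for 2 of the 9 lower-list members (22.2%), against 50.2% of that list as a whole. These 2 are Treml4 and Treml2, each the named neighbour of the other. In the higher list a neighbour was named for 12 of the 22 members (54.5%), against 53.8% of that list. Clec12b and Clec9a overlap but did not count as neighbours, because Clec1b starts between them.

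**Figure D4:**
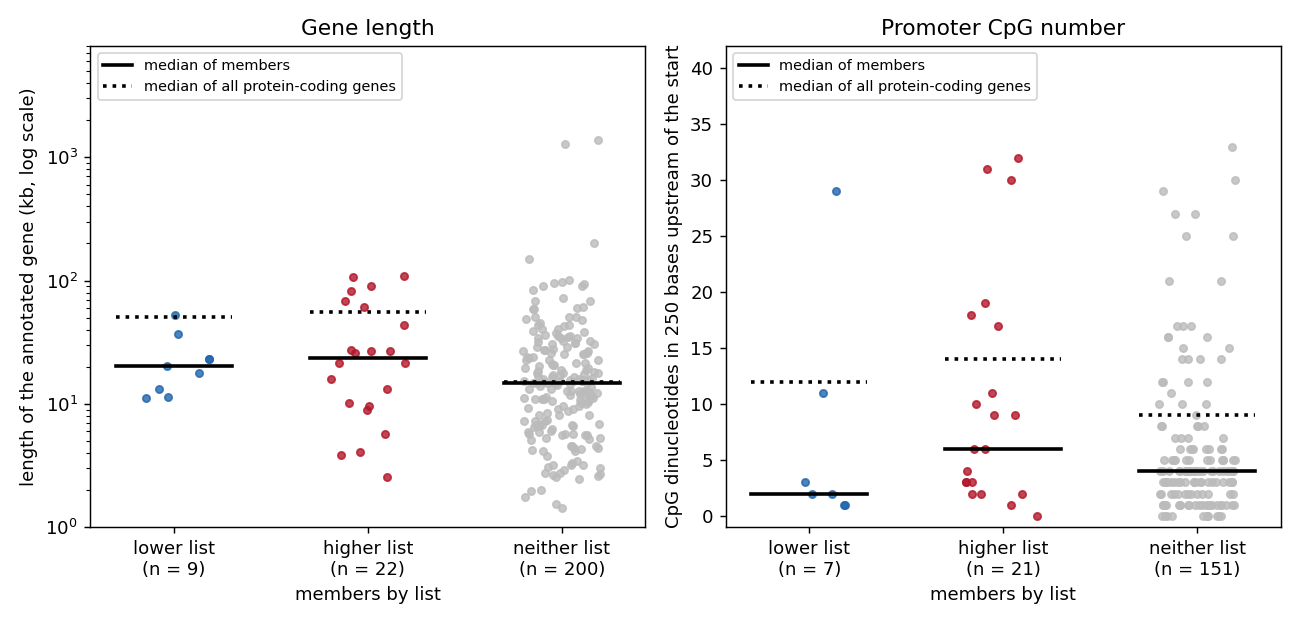
Each point is a protein-coding member, by list on the x axis. The y axis gives the length of the gene in kb on a log scale (left panel) or the number of CpG in the 250 bases upstream of the start (right panel), with solid lines at the members' medians and dotted lines at those of all protein-coding genes in the same list. In the lower list the solid lines lie at 20.3 kb and 2 CpG, below the dotted ones at 51 kb and 12 CpG.

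Genes that act with the members were listed at about the rate of all genes. Over 193 such genes that are not members themselves, the lower list held 3 (1.55%, against 1.51% of all protein-coding genes) and the higher list 24 (12.4%, against 12.1%). Of 45 genes of Toll-like receptor and interferon signalling, the lower list held 0 (against 1.51%) and the higher list 9 (20%, against 12.1%). They included the adaptor and kinase genes Traf3, Traf6 and Tbk1, the NF-kappaB genes Nfkb1 and Nfkbia, the STAT genes Stat4 and Stat5b, and the inhibitor Socs3. Of 24 genes listed with immunoreceptor adaptors and kinases, the lower list held 2 (8.33%, against 1.51%) and the higher list 3 (12.5%, against 12.1%). Blnk, a B cell adaptor gene, and Fcgrt, the neonatal Fc receptor gene, were in the lower list, and Bcl10, Vav2 and Vav3 in the higher. Of 72 chemokine and cytokine genes, the higher list held 6 (8.33%, against 12.1%) and the lower list 0 (against 1.51%). The 6 were Ccl8, Cxcl1, Cxcl12, Cxcl13, Il34 and Xcl1. Il34 encodes a ligand of the receptor that Csf1r encodes, and Csf1r was itself in neither list.

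Of 16 markers of leukocytes at large, the lower list held 1 (6.25%, against 1.51% of all protein-coding genes) and the higher list 3 (18.8%, against 12.1%). Lcp1, an actin-bundling protein gene of leukocytes, was in the lower list. Spi1, which encodes the myeloid factor PU.1, Laptm5, a lysosomal protein gene of leukocytes, and Runx1, a factor of blood stem cells, were in the higher list. The other 12, among them Ptprc, Itgam, Adgre1 and Lyz2, were in neither. Whether leukocytes in either sorted sample had a part in the members' listing was not tested.

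Older symbols widen the set of genes that fit the patterns. The lower list holds the name CD97, an older symbol of Adgre5 (chromosome 8, 83723245 to 83741311), a leukocyte adhesion receptor gene, so by deposited names the lower list had 10 members. In all, 161 genes that are not members have an older symbol that fits a pattern. The lower list named 4 of these, Adgre5 included (2.48%), and the higher list 19 (11.8%), with Selplg in both. The lists named 1.51% and 12.1% of all protein-coding genes, and 0.812% and 6.29% of all annotated genes. Some fit only by such a symbol without belonging to a family, as Ccnd1 (cD1), Ky (CD1) and Noct (Ccr4) of the higher list. Flt3 (chromosome 5, 147330741 to 147400489), a growth factor receptor gene of blood progenitors, was in the lower list, as was Ddr1, a collagen receptor gene of epithelia. Kit, Itga4 and Vcam1, which act in blood cells or their adhesion, were in the higher list, together with genes known mainly outside blood, such as Insr, Igf1r, Igf2r and Fgfr3.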

How the data were processed

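Whole-genome bisulfite libraries were made from 1 Ngn3 null and 1 Ngn3 heterozygous sample. Per the labels' protocols, 75 ng of DNA was tagmented with Tn5, bisulfite-converted and amplified by 12 PCR cycles, and 150 bp paired-end reads were sequenced. Bisulfite does not separate methylation from hydroxymethylation. The submitters' processing notes list Trim Galore and the builds mm10 and GRCm38. The sources used here do not give the aligner, region caller, thresholds, coverage minimum or nearest-gene rule, so the names depend on choices that cannot be varied. The authors deposited 1 table of gene names in 9 columns with no unit. The 7 columns without a header carry on the order of the second and were read as the higher list. How uneven Tn5 insertion, PCR duplicates or incomplete conversion were handled is unknown, and each could move a region in or out of a list.

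Matching ignored case and used symbols, gene IDs and unique older symbols of RefSeq GRCm38.p6, giving 406 of 429 genes in the lower list and 3145 of 3230 in the higher list. Coordinates are those of the annotated genes, 1-based. Promoters are RefSeq's (GRCm38.p6), with 28 of the 31 named members and 179 of 231 protein-coding members matched. The matching was tested on simulated names. Named members and named genes of 6 further gene lists are given, except a few that are not reported here. Members in neither list are represented by up to 4 genes per family in symbol order, and further such members stand where they neighbour a named gene or belong to the same small family. Members and lists were chosen with earlier results of these data known. Alternatives are given in the closing section. Python 3.11.15 and pandas 2.3.3 were used.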

Additional observations from a re-analysis of the deposited data

How the results depend on the processing

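With 1 library per genotype no replicate could be left out. No paired analysis was possible because there is a single library of each kind and nothing to pair. The counts of 9 lower-list and 22 higher-list members were the same with current symbols only, with protein-coding genes only and without genes named in both lists. Names as deposited gave 10 and 22, autosomes alone 8 and 21, and the rule without CD numbers 9 and 16. Splits by gene length gave 13 long and 9 short members in the higher list, and 3 short members in the lower list, by construction since each holds part of the members. The members' share of the higher list was 1.49 times that of all annotated genes, but 0.789 times with protein-coding genes only and 0.705 times with long ones. The change of class moved the first of these, since 6.29% of all annotated but 12.1% of all protein-coding genes were named there. The members' share of the lower list ranged over 2.21 to 7.1 times that of all genes of the class compared. The 2.21 is against protein-coding genes with a span above the median. The 7.1 is against all annotated genes, with the CD pattern left out, which held 0 genes of the lower list. The families were selected on these lists, so the range is a description only.

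Chosen after seeing the data, the reading of older symbols gave 41 genes in the higher list, Ccnd1, Ky and Noct among them. It gave 1 gene, Selplg, in both lists. Of members with a promoter sequence, 144 had at most the median of 10 CpG. The higher list held 14 of these (9.72%, against 8.82% of all such protein-coding genes) and the lower list 5 (3.47%, against 1.25%). Of the 35 with more CpG, the higher list held 7 (20%, against 15.1%) and the lower list 2 (5.71%, against 1.7%). At or below the median span of 46.4 kb lay 122 members. The higher list held 7 of these (5.74%, against 5.18% of all such protein-coding genes) and the lower list 3 (2.46%, against 0.538%). Above that span the members' share of the higher list was 0.724 times that of all such genes. Depth per region is unknown, so absence from a list does not show that methylation was alike.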
